A study of Mus musculus with 6 samples.

Results

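Translesion DNA polymerases copy past damaged bases that stop the replicative polymerases. The 10 genes described here encode these polymerases, the related polymerases and primase of damage bypass, and the factors that bring them to a stalled fork: Polk, Rev1, Polh, Poli, Rev3l, Mad2l2, Primpol, Rad18, Polq and Poln. They were taken by gene symbol and Ensembl identifier from a table of 38924 mouse genes. RNA was sequenced from purified CD49f+ epidermal cells of mice, CD49f being the integrin alpha 6 chain on basal keratinocytes. The 3 K14-Cre+ samples (Cre-positive) and the 3 K14-Cre- samples (Cre-negative) all carried Rnaseh2b flox/flox, so both groups had the floxed alleles and the groups differ by the Cre transgene. Cre was driven by the keratin 14 promoter, which is used by basal keratinocytes. Whether the floxed alleles were also cut in other cells of the sort was not measured. The age of the mice, and whether each sample is a separate animal, are not stated in the labels, so p-values measure the spread among these libraries, which may in part be technical.

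Rnaseh2b encodes a subunit of RNase H2, which starts the removal of ribonucleotides built into DNA. When a fork meets a damaged base, RAD18 attaches ubiquitin to the sliding clamp PCNA, and the modified clamp recruits the Y-family polymerases eta, iota, kappa and REV1. One polymerase inserts a base opposite the lesion and polymerase zeta, made of REV3L with MAD2L2 and subunits shared with polymerase delta, extends from it. PRIMPOL instead restarts synthesis beyond the lesion, and polymerase theta, encoded by Polq, joins broken ends through short homologies. In skin this system is best known through polymerase eta, whose loss in humans causes the variant form of xeroderma pigmentosum, a disease of sunlight sensitivity and skin cancer.

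Library totals ran from 23186065 to 31718094 counts in Cre-positive and from 22948779 to 25362538 in Cre-negative cells. Rnaseh2b counted 172, 90 and 69 reads in the Cre-positive group, against 543, 504 and 570 reads in the Cre-negative group, which matches the labels. The basal keratinocyte genes were present in every library, with a summed level of 17475 to 19721 CPM (counts scaled to a common library size) over 10 markers in Cre-positive and 17717 to 20018 CPM in Cre-negative cells, Krt5 being the most abundant. Suprabasal keratinocyte genes were present too, with 8 markers summing to 106113 to 143603 CPM in Cre-positive and 84568 to 106489 CPM in Cre-negative cells. Both sexes occurred in each group, and Cre-positive replicate 3 was the only female of its group. That library also stood apart in S phase and mitosis genes, whose 25 members summed to 1728, 1765 and 987 CPM in Cre-positive replicates 1, 2 and 3 and to 1864, 1664 and 1917 CPM in the Cre-negative libraries.

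The stretches before the start sites of the 2 genes that rose, Polk and Rev1, and of Polh, the most abundant Y-family gene, are shown here to place them beside their neighbours. They come from the RefSeq promoter table of build GRCm38.p6, which held 8 of the 10 genes, and exons of more than 30 bases in GENCODE were left out. All 3 genes lie on the minus strand, the letters run 5′ to 3′ on that strand, and capitals mark GC boxes, the motif GGGCGG on either strand.
Polk, chr13:96542580-96542734: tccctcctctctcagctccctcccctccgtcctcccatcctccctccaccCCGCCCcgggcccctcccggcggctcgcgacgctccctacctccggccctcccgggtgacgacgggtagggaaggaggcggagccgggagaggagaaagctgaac
Rev1, chr1:38129802-38129916: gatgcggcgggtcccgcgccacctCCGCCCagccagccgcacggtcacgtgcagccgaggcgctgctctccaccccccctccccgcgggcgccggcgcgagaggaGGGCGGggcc
Polh, chr17:46202646-46202781: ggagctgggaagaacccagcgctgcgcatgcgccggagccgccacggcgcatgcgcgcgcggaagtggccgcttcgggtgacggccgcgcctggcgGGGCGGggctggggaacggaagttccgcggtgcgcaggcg
The Polk stretch of 155 bases is all that separates the Polk start from the main start of Col4a3bp, a ceramide transfer protein gene on the plus strand, and it holds a 27-base exon of a minor Col4a3bp transcript. Over the full 250 bases before each start, the GC box occurred 1 time for Polk, 2 times for Rev1 and 1 time for Polh, and 32.7% of all 32851 promoter windows held it. No CCAAT box (CCAAT, in 33.8% of all windows), no E2F motif (TTTCGCGC, in 0.256%, or TTTGGCGC, in 0.417%) and no match to the p53 decamer consensus (in 7.13%) was found in these 3 windows on either strand. Among the 8 genes searched, the p53 decamer consensus matched 1 time in the window of Primpol and 1 time in that of a downstream start of Polk. These are matches of letters and describe no binding.

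Polk and Rev1 were called higher in Cre-positive cells by edgeR, and no member was called lower. By the quasi-likelihood test of edgeR, 2 of the 9 members that passed the count filter were called at an adjusted p under 0.05, both higher, against 0.515% of the 15525 genes tested, 0.406% being higher and 0.110% lower. Poln was below the filter. The groups did not overlap for 4 of the 9, Polk and Rev1 being higher and Poli and Mad2l2 lower, while 28.0% of all tested genes had no overlap. The median log2 fold change of the 9 was -0.03, and that of all tested genes was -0.0048.

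**Figure D1:**
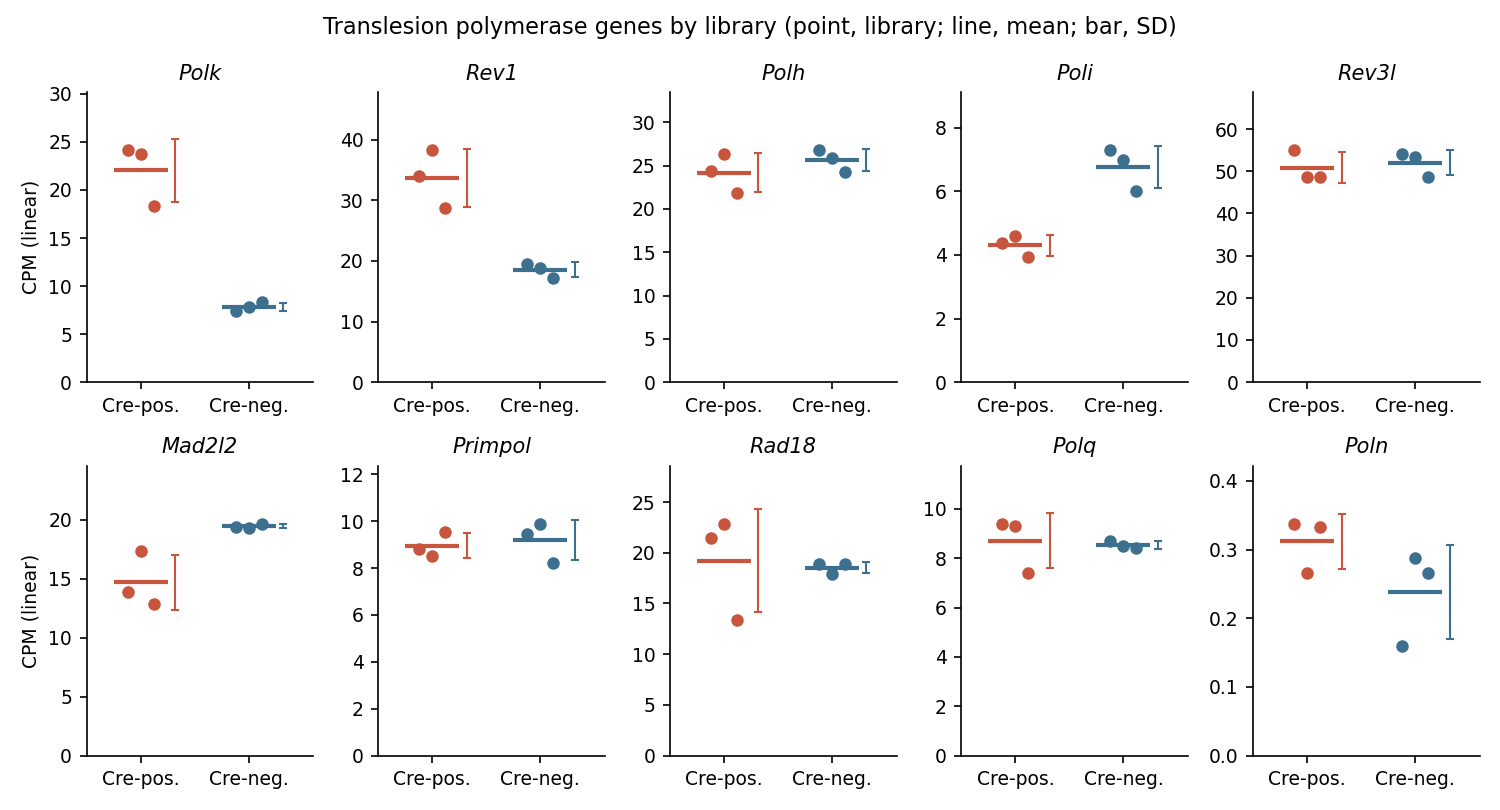
CPM (linear axes from 0) of each of the 10 genes in the 3 Cre-positive (left) and 3 Cre-negative (right) libraries; each point is a library, the line is the group mean and the bar is the SD. Polk lies at 18.3 to 24.2 CPM in Cre-positive and 7.42 to 8.30 CPM in Cre-negative libraries, Poli and Mad2l2 lie lower in every Cre-positive library, and the Rad18 points of the Cre-positive group spread from 13.4 to 22.9 CPM.

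Among the Y-family polymerases, Polk (ENSMUSG00000021668; mm10, chromosome 13, 96480689 to 96542485, 16 exon blocks) encodes polymerase kappa, which inserts bases opposite bulky adducts on guanine. It had 24.2, 23.8 and 18.3 CPM in Cre-positive replicates 1, 2 and 3 and 7.42, 7.80 and 8.30 CPM in Cre-negative replicates 1, 2 and 3. All Cre-positive libraries were above all Cre-negative ones. The means were 22.1 ± 3.28 CPM in Cre-positive and 7.84 ± 0.439 CPM in Cre-negative cells (SD, n = 3 each), a 2.82-fold difference with a 95% interval of 2.28 to 3.48. On the log2 scale the difference was 1.49 (SE 0.13, adjusted p = 0.0153 by edgeR), and Polk ranked 7 by p among all genes tested. The fold change stayed between 1.39 and 1.61 on the log2 scale under every alternative run. Polk lost its call without Cre-positive replicate 2 (edgeR, adjusted p = 0.0658) and without any of Cre-negative replicates 1, 2 and 3 (0.156, 0.123 and 0.103), and over the 6 fits that leave out a library the adjusted p ran from 0.00151 to 0.156. Within males the log2 ratio of Cre-positive to Cre-negative CPM was 1.62 (2 libraries against 1) and within females 1.22 (1 against 2).

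Col4a3bp, whose start faces that of Polk across the stretch shown above, had 59.3, 57.0 and 70.0 CPM in Cre-positive and 51.3, 61.7 and 53.4 CPM in Cre-negative libraries. The groups overlapped, with a log2 fold change of 0.16 (SE 0.11, 95% interval -0.09 to 0.42, edgeR adjusted p = 0.447). The interval of Polk, 1.19 to 1.80, lies above that of its neighbour.

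Rev1 (ENSMUSG00000026082; mm10, chromosome 1, 38052787 to 38129662, 23 exon blocks) encodes a transferase that inserts cytosine and serves as the scaffold to which the other Y-family polymerases and polymerase zeta bind. It had 34.0, 38.3 and 28.7 CPM in Cre-positive replicates 1, 2 and 3 and 19.5, 18.9 and 17.1 CPM in the Cre-negative ones. The lowest Cre-positive library was thus above the highest Cre-negative one. The means were 33.7 ± 4.80 and 18.5 ± 1.24 CPM in Cre-positive and Cre-negative cells (SD, n = 3 each), a 1.82-fold difference (95% interval 1.50 to 2.21; log2 fold change 0.86, SE 0.12, adjusted p = 0.0400 by edgeR). The call ended under scaling by total count (log2 fold change 0.76, edgeR adjusted p = 0.110), with sex as a covariate (0.79, adjusted p = 0.0636) and without Cre-positive replicate 1 or 2 (0.0855 and 0.128) or Cre-negative replicate 1, 2 or 3 (0.235, 0.222 and 0.200). Without Cre-positive replicate 3 the adjusted p was 0.00411. The log2 ratio was 0.94 within males and 0.65 within females. Eif5b, a translation initiation factor gene of the other strand, shares 29.1% of the exon length of Rev1, and without a stated strand setting reads in the shared part cannot be told apart. Eif5b had 141.3, 146 and 155 CPM in Cre-positive and 140.6, 132 and 138 CPM in Cre-negative libraries (log2 fold change 0.11, SE 0.07, edgeR adjusted p = 0.441). Its groups thus did not overlap, by a narrow margin, as was the case for 28.0% of all tested genes.

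Polh and Poli did not pass the test. Polh encodes polymerase eta, which copies past ultraviolet-induced pyrimidine dimers, and had 24.3, 26.3 and 21.8 CPM in Cre-positive and 26.8, 25.9 and 24.3 CPM in Cre-negative libraries. These overlap, and the log2 fold change of -0.09 had a 95% interval of -0.30 to 0.13 (edgeR adjusted p = 0.645), equal to 0.810-fold to 1.10-fold. Poli (ENSMUSG00000038425; mm10, chromosome 18, 70508680 to 70530620) encodes polymerase iota, a low-fidelity enzyme that binds REV1. It had 4.36, 4.60 and 3.94 CPM in Cre-positive and 7.30, 6.98 and 6.01 CPM in Cre-negative libraries, every Cre-positive value being the lower. The difference was -0.65 on the log2 scale (SE 0.14, 95% interval -0.99 to -0.31, edgeR adjusted p = 0.104), and it was negative in each alternative run, from -0.76 to -0.59. The Wald test of DESeq2 called it lower (adjusted p = 0.0227), a test that called 6.05% of the genes it gave an adjusted p. Its log2 ratio was -0.64 within males and -0.75 within females.

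**Figure D2:**
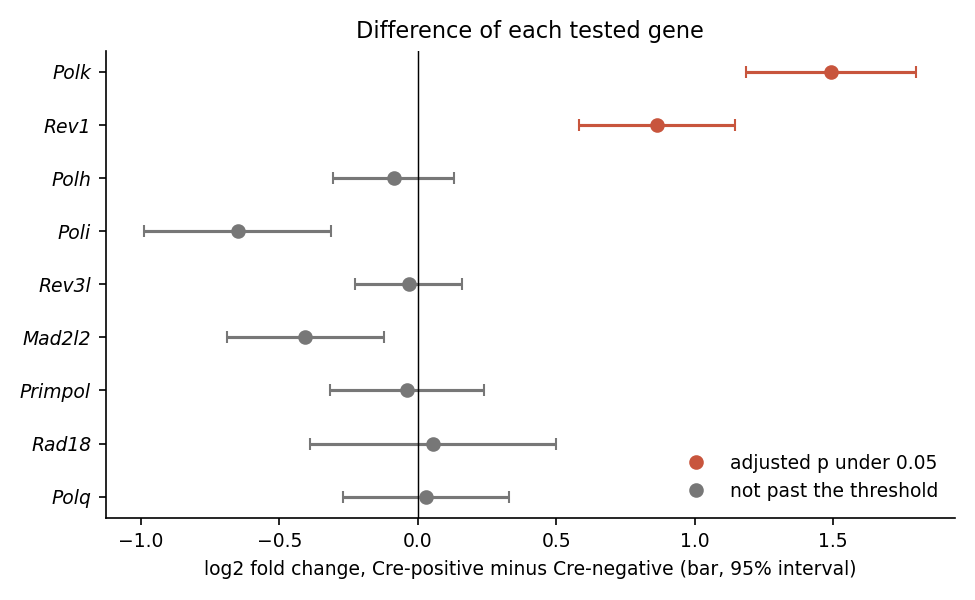
Log2 fold change of the 9 tested genes, Cre-positive minus Cre-negative, with 95% intervals from the edgeR fit; filled red points passed an adjusted p of 0.05 and grey points did not. Polk (1.49) and Rev1 (0.86) lie to the right of 0, the intervals of Poli and Mad2l2 lie to its left without passing the adjusted threshold, and the other 5 intervals span 0.

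Levels of different genes are compared per length, as CPM per kilobase of exon (FPKM). In Cre-positive cells Polh had the highest mean, 9.40 ± 0.882 FPKM, followed by Rev1 (7.90 ± 1.13), Mad2l2 (5.60 ± 0.896), Polk (5.15 ± 0.764), Rev3l (3.82 ± 0.276) and Rad18 (3.32 ± 0.881). In Cre-negative cells the order was Polh (9.98 ± 0.495 FPKM), Mad2l2 (7.42 ± 0.0728), Rev1 (4.34 ± 0.291), Rev3l (3.91 ± 0.226), Rad18 (3.20 ± 0.101), Polk (1.83 ± 0.102) and Poli (1.75 ± 0.174), with SD and n = 3 throughout. Polk thus had rank 4 in Cre-positive cells and rank 6 in Cre-negative cells. Neighbours whose libraries overlapped, and so are not ordered beyond their spread, were Polh with Rev1, Mad2l2 with Polk and Rev3l with Rad18 in Cre-positive cells, and Rev1 with Rev3l, Polk with Poli and Poli with Primpol in Cre-negative cells. Primpol, Poli, Polq and Poln were the 4 lowest in Cre-positive cells, at 1.42 ± 0.0856, 1.11 ± 0.0863, 0.899 ± 0.116 and 0.108 ± 0.0139 FPKM.

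The 4 Y-family genes summed to 24.2, 26.0 and 20.5 FPKM in Cre-positive and to 18.6, 18.1 and 17.0 FPKM in Cre-negative libraries. Polk made up 21.8 ± 1.30% of that sum in Cre-positive and 10.2 ± 1.07% in Cre-negative cells, and Rev1 33.5 ± 0.987% in Cre-positive and 24.2 ± 0.478% in Cre-negative cells. Polh made up 40.0 ± 1.22% in Cre-positive and 55.8 ± 0.200% in Cre-negative cells, and Poli 4.74 ± 0.206% in Cre-positive and 9.76 ± 0.515% in Cre-negative cells (SD, n = 3 each). Shares of a sum are tied to each other, so the smaller share of Polh goes with the rises of Polk and Rev1 at a similar level of its own. The ratio of Polk to Poli in FPKM was 4.99, 4.65 and 4.18 for Cre-positive replicates 1, 2 and 3, whereas the Cre-negative libraries had 0.916, 1.01 and 1.24. These shares restate the same contrast and were given no test.

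**Figure D3:**
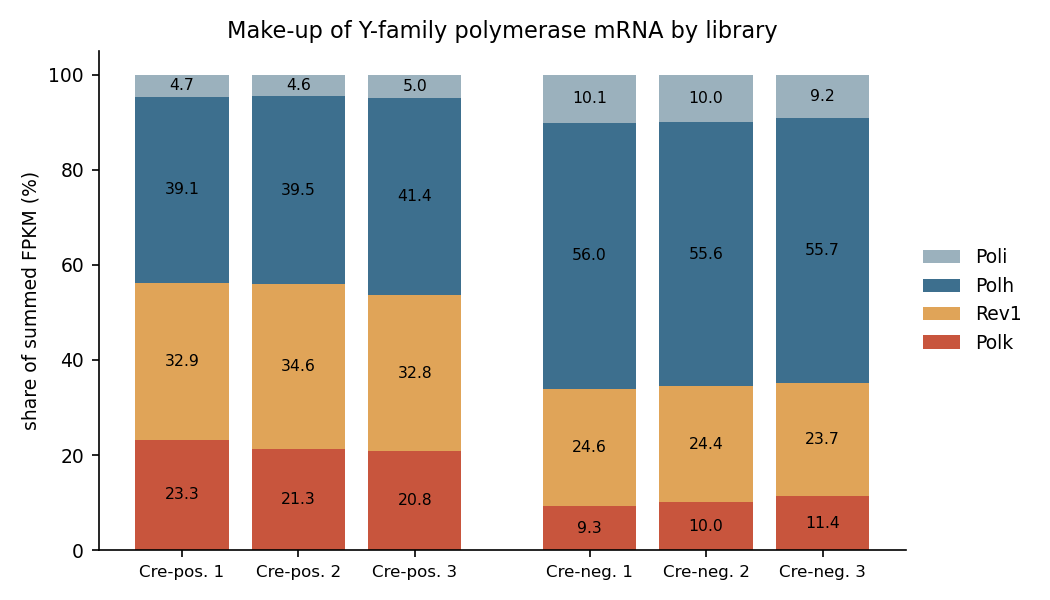
Share of each Y-family gene in the summed FPKM of Polk, Rev1, Polh and Poli (percent, stacked to 100) for the 3 Cre-positive libraries (left) and the 3 Cre-negative libraries (right). Polk takes 20.8 to 23.3% in Cre-positive and 9.28 to 11.4% in Cre-negative libraries, and Poli takes 4.59 to 4.98% in Cre-positive and 9.18 to 10.1% in Cre-negative libraries.

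For polymerase zeta, neither measured gene passed the test. Rev3l, the catalytic subunit and the gene with the largest exon length of the set (13293 bases), had 55.0, 48.7 and 48.7 CPM in Cre-positive and 54.1, 53.4 and 48.6 CPM in Cre-negative libraries. The groups overlapped, and the log2 fold change of -0.03 had a 95% interval of -0.23 to 0.16 (edgeR adjusted p = 0.855). Mad2l2 (ENSMUSG00000029003; mm10, chromosome 4, 148130384 to 148145699) encodes the adaptor that joins REV3L to REV1 and also acts in the choice of break repair and in mitosis. It had 13.9, 17.3 and 12.9 CPM in Cre-positive and 19.4, 19.3 and 19.7 CPM in Cre-negative libraries, so the groups did not overlap. Its log2 fold change was -0.41 (SE 0.12, 95% interval -0.69 to -0.12, unadjusted p = 0.0113 and adjusted p = 0.169 by edgeR), and it was negative in each alternative run, from -0.54 to -0.32. The ratio of Rev3l to Mad2l2 in FPKM was 0.783, 0.553 and 0.746 for Cre-positive replicates 1, 2 and 3, whereas Cre-negative libraries had 0.549, 0.546 and 0.487, with Cre-positive replicate 2 close to the Cre-negative values. Pold2 and Pold3, named for encoding the subunits that polymerase zeta shares with polymerase delta, had log2 fold changes of -0.19 (SE 0.15, edgeR adjusted p = 0.498) and -0.23 (SE 0.10, edgeR adjusted p = 0.295).

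Rad18 encodes the ligase that ubiquitinates PCNA. It had 21.4, 22.9 and 13.4 CPM in Cre-positive replicates 1, 2 and 3 and 18.9, 17.9 and 18.9 CPM in Cre-negative libraries. Cre-positive replicates 1 and 2 were thus the highest of all 6 libraries and replicate 3 the lowest. It differed by 0.06 on the log2 scale (SE 0.19, 95% interval -0.39 to 0.50, edgeR adjusted p = 0.899), and the sign turned under scaling by total count, with sex as a covariate and without Cre-positive replicate 1 or 2. Without replicate 3 it was 0.25 (edgeR adjusted p = 0.127). Within males the log2 ratio was 0.31 and within females -0.49. The summed S phase and mitosis genes were likewise lowest in Cre-positive replicate 3, and their part in this value was not tested.

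Polq encodes polymerase theta and had 9.40, 9.29 and 7.41 CPM in Cre-positive and 8.70, 8.50 and 8.41 CPM in Cre-negative libraries. As for Rad18, Cre-positive replicates 1 and 2 were highest and replicate 3 lowest. The log2 difference was 0.03 (SE 0.13, 95% interval -0.27 to 0.33, edgeR adjusted p = 0.921), with a sign that turned under scaling by total count, with sex as a covariate and without Cre-positive replicate 1 or 2. Poln, which encodes polymerase nu, another A-family enzyme, was close to the limit of detection, with 11, 6 and 7 reads counted in Cre-positive libraries, against 4, 7 and 7 reads in Cre-negative ones. A floor of 3 counts was 0.0922 to 0.143 CPM, and at this depth a difference in Poln was not detectable. Primpol had 8.82, 8.50 and 9.55 CPM in Cre-positive and 9.47, 9.90 and 8.22 CPM in Cre-negative libraries, which overlapped (log2 fold change -0.04, 95% interval -0.32 to 0.24, edgeR adjusted p = 0.887), and its sign turned under the removal of Cre-negative replicate 2. Cenpu, on the other strand, shares 16.9% of the exonic bases of Primpol.

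**Figure D4:**
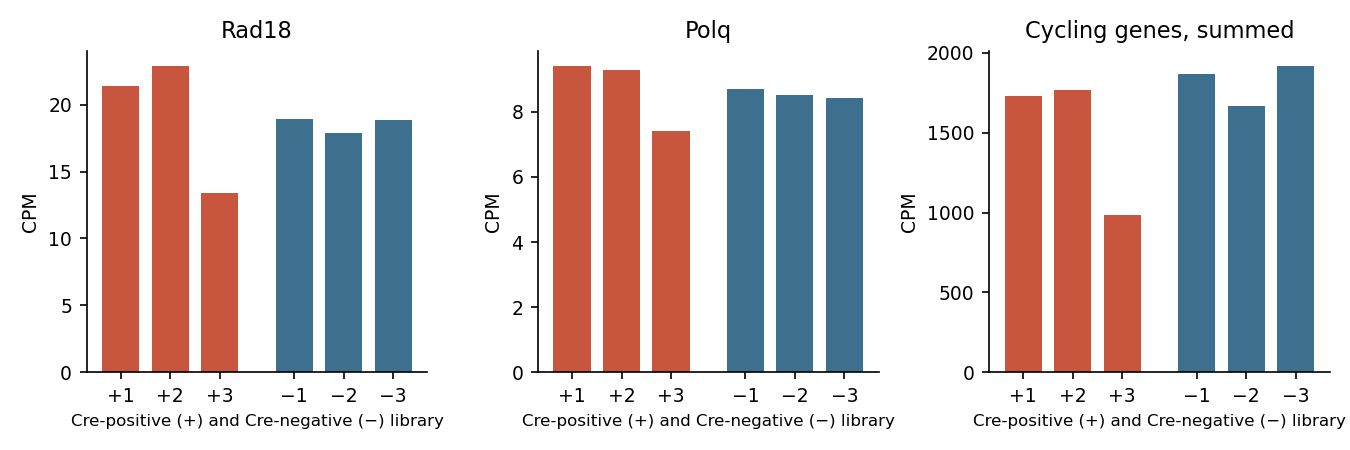
CPM of Rad18, of Polq and of 25 S phase and mitosis genes summed, for Cre-positive libraries 1 to 3 (red, left) and Cre-negative libraries 1 to 3 (blue, right); bars start at 0 and each is 1 library. Cre-positive replicate 3 is the lowest bar in all 3 panels, at 13.4, 7.41 and 987 CPM.

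Beyond the members, 24 genes that act with PCNA in damage tolerance were tested and none passed by edgeR, DESeq2 or limma-voom, while 3 had an unadjusted p under 0.05 in edgeR. Over all tested genes 18.8% had such an unadjusted p, and DESeq2 and limma-voom called 6.05% and 0.425%, so these 3 are a smaller share than that of all genes. Their median log2 fold change was -0.06. Zranb3, a translocase that remodels forks at ubiquitinated PCNA, had -0.52 (SE 0.17, edgeR adjusted p = 0.187), and Sprtn, a protease of DNA-protein crosslinks, had 0.30 (SE 0.10, edgeR adjusted p = 0.187). The ubiquitin protease gene Usp7 had 0.28 (SE 0.11), and Rpa3, a subunit of the single-strand binding protein, had -0.26 (SE 0.11). Named for their role as partners of RAD18, Ube2a and Ube2b, the conjugating enzymes, had -0.03 and 0.02, and Pcna itself had 60.8 ± 12.2 CPM in Cre-positive and 75.9 ± 5.24 CPM in Cre-negative cells (log2 fold change -0.32, SE 0.15, adjusted p = 0.299 by edgeR). The lowest of the 6 Pcna values, 46.7 CPM, was that of Cre-positive replicate 3.

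Of 17 tested genes for DNA polymerases outside translesion synthesis, none passed by edgeR or limma-voom, 4 had an unadjusted p under 0.05 (18.8% of all genes did), and the Wald test of DESeq2 called 1, Pold1 (6.05% of all genes). Both shares are close to those of all genes. The median was -0.23, and 13 of the 17 values were negative. Pold1, the catalytic subunit of polymerase delta, had 35.0 ± 4.12 CPM in Cre-positive and 47.6 ± 5.71 CPM in Cre-negative cells, a difference of -0.44 (SE 0.12, edgeR adjusted p = 0.156). Pola1, the catalytic subunit of polymerase alpha, had 28.4, 28.2 and 18.4 CPM in Cre-positive and 37.3, 32.9 and 35.7 CPM in Cre-negative libraries (log2 fold change -0.50, SE 0.17, edgeR adjusted p = 0.196), again with Cre-positive replicate 3 lowest. The primase subunit gene Prim1 and the polymerase alpha subunit gene Pola2 had -0.34 (SE 0.13) and -0.31 (SE 0.10). Of 11 break repair genes in the theta end joining list, none passed by edgeR or limma-voom, and 10 of the 11 log2 fold changes were negative. Of these 11, 4 had an unadjusted p under 0.05, against 18.8% of all genes, and DESeq2 called 1, Parp1, against 6.05%. Parp1, the sensor of DNA strand breaks, had 86.0 ± 6.82 CPM in Cre-positive and 111 ± 9.79 CPM in Cre-negative cells (log2 fold change -0.37, SE 0.10, edgeR adjusted p = 0.140), Rbbp8, which starts the resection of broken ends, had -0.36 (SE 0.11), Xrcc1, a scaffold of strand break repair, had -0.22 (SE 0.08), and the helicase gene Helq had -0.21 (SE 0.09). In the S phase and mitosis list, 0 of 25 genes passed by edgeR, DESeq2 or limma-voom. An unadjusted p under 0.05 occurred for 3, a smaller share than the 18.8% of all genes. The median was -0.26, and 24 of the 25 values were negative, against 7917 of 15525 over all tested genes. The replication genes Gins2, Mcm6, Mcm7 and Cdt1 had the smallest p of this list, with log2 fold changes of -0.56, -0.35, -0.32 and -0.24, and each had its lowest level in Cre-positive replicate 3. Without Cre-positive replicate 3, 1 gene of the 25, Ccnb1, passed by edgeR, and it was higher in Cre-positive cells. Ccnb1 was the 1 gene of the list with a positive value over all 6 libraries (0.11). It had 25.7 and 25.9 CPM in Cre-positive replicates 1 and 2 and 19.6, 20.2 and 20.9 CPM in Cre-negative libraries.

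Polk has been described as a p53 target in mouse cells. Among 29 other p53 targets in the test, 10 were called higher by edgeR, 0 were called lower and 19 missed the threshold. Over all tested genes 0.406% were called higher and 0.110% lower. The median log2 fold change of the list was 0.69. Phlda3, a repressor of AKT signalling, had 54.1, 60.5 and 60.8 CPM in Cre-positive and 35.7, 33.3 and 35.5 CPM in Cre-negative libraries. Ccng1, a cyclin G gene, Def6, a guanine nucleotide exchange factor gene, and Ddit4l, an inhibitor of mTOR signalling, rose by 1.65, 0.76 and 3.68 on the log2 scale (adjusted p = 0.0181, 0.0181 and 0.0182 by edgeR). The list was drawn up with results of these samples known and is no independent evidence of a direction. Its count of calls was 4, 1 and 20 when Cre-positive replicate 1, 2 or 3 was left out and 0 when any single Cre-negative library was, and it was 5 under scaling by total count, 6 with sex as a covariate and 22 by DESeq2.

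**Figure D5:**
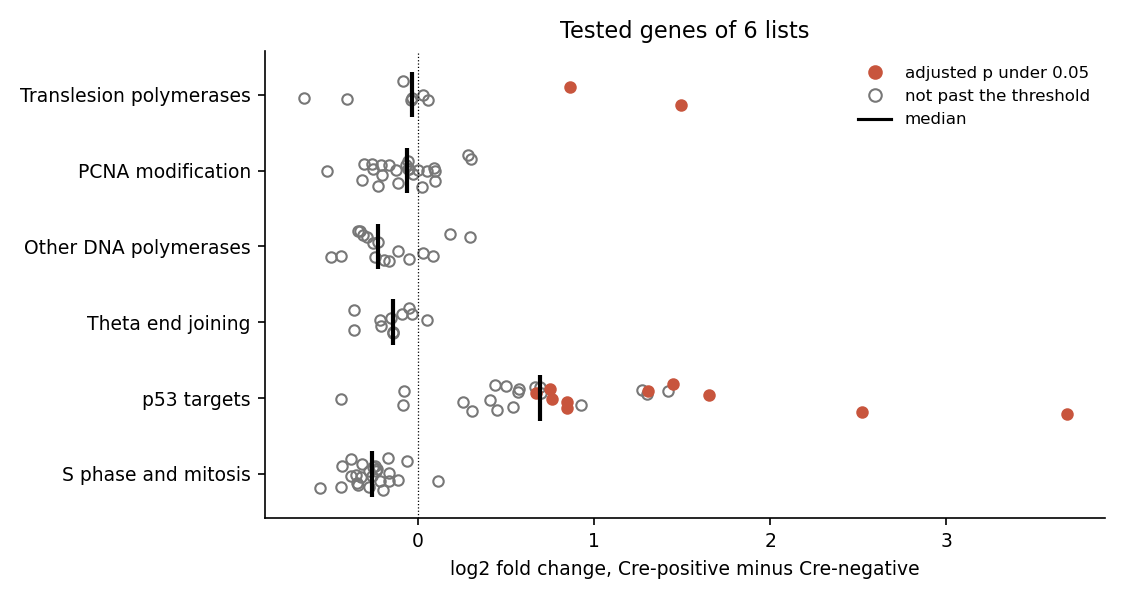
Log2 fold change (Cre-positive minus Cre-negative) of each tested gene in 6 lists; each circle is a gene, filled red where the edgeR adjusted p was under 0.05, and the black line is the median of the list. The medians are -0.03 for the translesion genes, -0.06 for PCNA modification, -0.23 for other polymerases, -0.14 for theta end joining, 0.69 for p53 targets and -0.26 for S phase and mitosis.

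The 5 genes whose log2 CPM followed that of Polk most closely over the 6 libraries, among 13771 genes with a mean of at least 1 CPM and a count in every library, were Inpp5f, Abcb1b, Slc24a5, Dnm3 and Trem2, with Pearson r from 0.994 to 0.996. Among the members r with Polk was 0.97 for Rev1, -0.92 for Poli and -0.77 for Mad2l2, and between -0.35 and 0.25 for the other 5 tested. The 6 points share their 2 groups, so any gene with a clear group difference reaches a high r, and the values only describe these libraries. Abcb1b, a drug efflux pump gene, had 22.4, 23.8 and 17.2 CPM in Cre-positive and 1.76, 2.14 and 2.06 CPM in Cre-negative libraries. Slc24a5, a pigment cell exchanger gene, had 31.9, 32.6 and 28.1 CPM in Cre-positive and 13.6, 15.6 and 14.8 CPM in Cre-negative libraries.

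The summed markers of melanocytes, of T cells and of Langerhans and myeloid cells did not overlap between the groups, and their part in the values of Polk, Rev1, Poli and Mad2l2 was not tested. In these bulk samples a different number of cells of a type and a different RNA level per cell cannot be told apart. The 10 melanocyte markers summed to 728 to 839 CPM in Cre-positive and to 406 to 473 CPM in Cre-negative libraries. By edgeR 7 of the 10 were called higher, where 0.406% of all tested genes were called higher. All 10 markers had positive log2 fold changes, from 0.42 to 1.57. Their most abundant member, Dct, had 318 to 382 CPM in Cre-positive and 192 to 217 CPM in Cre-negative libraries. The 7 T cell markers summed to 16.4 to 22.5 CPM in Cre-positive and 25.1 to 31.7 CPM in Cre-negative libraries, with none called by edgeR or limma-voom, 5 at an unadjusted p under 0.05 (18.8% of all genes) and 3 called lower by DESeq2. The most abundant of them, Ptprc, a gene of all leukocytes, had 7.84 to 12.2 CPM in Cre-positive and 8.52 to 10.6 CPM in Cre-negative libraries, which overlap. The 10 Langerhans and myeloid markers summed to 84.8 to 117 CPM in Cre-positive and 129 to 169 CPM in Cre-negative libraries. By edgeR 1 of 9 tested, Lyz2, was called higher (log2 fold change 1.33) and 1, H2-Ab1, lower (-2.29). Cd74 and H2-Aa had -2.42 and -2.52, while Cd68 and Adgre1 had 0.49 and 0.62. Csf1r, Tyrobp and Fcer1g had -0.04, -0.08 and -0.07. The lower sum was thus not shared by all of these markers. The most abundant, Csf1r, had 24.8 to 35.5 CPM in Cre-positive and 29.0 to 33.5 CPM in Cre-negative libraries. The suprabasal keratinocyte markers (8 genes) summed to 106113 to 143603 CPM in Cre-positive and 84568 to 106489 CPM in Cre-negative libraries, so these sums overlapped. None was called by edgeR or limma-voom, 6 had an unadjusted p under 0.05 (18.8% of all genes) and DESeq2 called 3 higher. All 8 log2 fold changes were positive, from 0.30 to 0.91 with a median of 0.37. The groups did not overlap for 6 of the 8 genes, against 28.0% of all tested genes. Krt10, the most abundant, had 52411 to 67532 CPM in Cre-positive and 40773 to 52899.8 CPM in Cre-negative libraries, which also overlap. Fibroblast markers (8 genes) lay at 274 to 1474 CPM in Cre-positive and 301 to 930 CPM in Cre-negative libraries, and endothelial markers (6 genes) at 2.12 to 24.1 CPM in Cre-positive and 2.93 to 20.8 CPM in Cre-negative libraries. Muscle and blood markers (8 genes) lay at 31.8 to 55.5 CPM in Cre-positive and 36.2 to 112 CPM in Cre-negative libraries, and these 3 sums overlapped between the groups. Of their most abundant genes, Col3a1 had 23.9 to 436 CPM in Cre-positive and 38.1 to 261 CPM in Cre-negative libraries, Kdr 0.475 to 4.79 CPM in Cre-positive and 1.36 to 5.48 CPM in Cre-negative libraries, and Hbb-bs 13.5 to 15.9 CPM in Cre-positive and 15.8 to 34.1 CPM in Cre-negative libraries. No marker that matched by symbol was at 0 in all 6 libraries. Trdc of the T cell list and Flg of the suprabasal list had no match by symbol and are in no sum. Cd207 of the Langerhans and myeloid list and Emcn of the endothelial list were below the count filter and were not tested.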

How the data were processed

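The 6 libraries came as a deposited table of raw read counts per gene, without normalization per the file headers. GSNAP was used for alignment and featureCounts for counting on mm10, per the submitters' processing notes, which name no version or strand setting. Exon lengths are those the authors deposited. Of 38924 genes, 37607 matched a symbol, and 15525 passed filterByExpr (minimum count 10). After TMM scaling, Cre-positive and Cre-negative libraries (3 each) were compared by edgeR 4.0.16 in R 4.3.3 (quasi-likelihood, two-sided, no covariate, Benjamini-Hochberg over every gene tested, threshold 0.05). CPM and FPKM use the scaled library sizes, and standard errors and 95% intervals come from that fit. A floor of 3 counts covers counting error only. The fit was tested on simulated counts. Alternatives were DESeq2 size factors, total count scaling, DESeq2 1.42.0, limma-voom (limma 3.58.1), no filter beyond 1 count, a mean of at least 1 CPM, sex (from Xist and Y-linked genes of the mice) as a covariate, and leaving out each library.

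The members, lists and tests were chosen with earlier results of these data known. Named genes are the members, Rnaseh2b, up to 4 genes per process list with the smallest p, the most abundant gene of each cell type list, and the 5 most like Polk; any other is named for its role or position. Overlapping genes are named from 5% of the exonic bases and a mean of 10 counts. Pairs of libraries within a group differed by a chi-square per degree of freedom of 8.70 to 63.7, more than sampling noise gives. The highest values, 63.7 and 45.6, were those of Cre-positive replicate 3 with replicates 1 and 2, and all other pairs had 8.70 to 13.7.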

Additional observations from a re-analysis of the deposited data

How the results depend on the processing

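The number of genes past the threshold was 80 and moved to 41 under total count scaling, 847 by DESeq2, 142 with no filter beyond 1 count and 42 with sex as a covariate, and from 0 to 422 when 1 library was left out. Members past the threshold numbered 2, against 1 under total count scaling and 1 with sex as a covariate, and 0 to 2 when 1 library was left out. The 5 lists of related processes together held 10 calls, against 5 under total count scaling, 24 by DESeq2, 16 with no filter beyond 1 count, 6 with sex as a covariate and 0 to 21 when 1 library was left out. Rnaseh2b stayed between -2.55 and -2.19 without any 1 library, and its call ended in 4 of those 6 fits. Among the members, signs turned for those near 0 only: Rad18 had -0.043 under total count scaling, -0.083 with sex as a covariate and -0.085 to 0.25 without 1 library (-0.030 and -0.085 without Cre-positive replicate 1 or 2), Polq had -0.076, -0.032 and -0.030 to 0.13 (-0.019 without Cre-positive replicate 2), and Primpol had -0.113 to 0.0191 without 1 library, positive without Cre-negative replicate 2. The cause of these shifts was not tested. Total count scaling moved the median of all genes to -0.12, and the members' values there shifted by a like amount. No paired analysis was possible because the labels give the groups no shared replicate numbers. Depth limits Poln, which had 4 to 11 counts a library and was not tested.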
